A study of Mus musculus with 3 samples.

Results

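The genes described here encode the apical membrane and polarity machinery of podocytes, epithelial cells whose foot processes cover the capillaries of the kidney glomerulus. They are Podxl, Slc9a3r2, Ezr, Clic5, Clic4, Ptpro and Crb2, 7 genes of the 21887 protein-coding genes that RefSeq places on mouse chromosomes 1 to 19, X and Y (GRCm38.p6, the assembly also called mm10). They were chosen by name, with earlier results of these data known. Each was given every peak whose summit, the base of highest signal, fell between its annotated ends or no more than 50 kb beyond them. This gave 7 peaks of the 5213 in the Foxc1 list and 8 of the 2881 in the Foxc2 list.

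The lists come from chromatin immunoprecipitation sequencing (ChIP-seq) of bead-isolated glomeruli from adult C57BL/6 mice, aged 8 weeks, with 1 library for an antibody to Foxc1 (clone D8A6) and 1 for an antibody to Foxc2 (AF6989). Both are forkhead transcription factors, and the series title concerns their part in keeping adult podocytes differentiated. The labels name no genetic change or treatment in either group, and a library of input DNA from the same kind of tissue was not analysed here. Glomeruli also hold endothelial, mesangial and parietal cells, so no peak can be assigned to a cell type, and the labelled tissue could not be checked against markers because peak lists measure no expression. There were no replicates, read counts are not in the lists and the depth is therefore unknown, so every value below describes these libraries and carries no error, and no test between them was possible.

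The apical face of the podocyte carries a thick negatively charged coat. Its main component is podocalyxin, a sialomucin encoded by Podxl that keeps neighbouring foot processes apart by charge repulsion, and whose tail is tied to actin through the scaffold NHERF2 (Slc9a3r2) and the linker ezrin (Ezr). Clic5 and Clic4 encode chloride intracellular channel proteins, which associate with ezrin at the cell cortex; mice that lack Clic5 have fewer foot processes. Ptpro encodes GLEPP1, a receptor tyrosine phosphatase of the podocyte surface, and Crb2 encodes a Crumbs protein that sets apical polarity and is needed for the slit diaphragm. Several of these proteins are also made by glomerular endothelium, podocalyxin and Clic4 among them.

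Clic5, Clic4, Podxl and Ptpro had summits of both antibodies, Slc9a3r2 had Foxc2 summits only, and Ezr and Crb2 had none of either. Thus 4 of the 7 genes had a Foxc1 summit, where 29.3% of all protein-coding genes did, and 5 of 7 had a Foxc2 summit, where 23.2% of all genes did. Summits of both antibodies lay at 4 of 7, against 12.5% of all genes, a share not taken for genes of like span. At Ptpro the nearest Foxc1 and Foxc2 summits were 176 kb apart, and Clic4 counted through a single Foxc2 peak of fold 3.52. The median gene of the group had 1 peak in each list, and the median protein-coding gene had 0 in each. Foxc1 summits lay inside the span of Podxl, Clic5 and Clic4, a position found at 9.53% of all genes, and Foxc2 summits inside Clic5, Clic4 and Ptpro, a position found at 7.58% of all genes. The share of genes with a summit differed with gene span, more for Foxc1 than for Foxc2. Of the 1955 genes within a factor of 2 of the span of Ptpro (212336 bp), 46.9% had a Foxc1 and 29.3% a Foxc2 summit. Among the 7070 genes within the same factor of Slc9a3r2 (11025 bp) the shares were 28.5 and 24.1%. Around the span of Clic5 they were 43.4 and 30.1%, around Clic4 34.4 and 26.9%, and around Podxl 31.9 and 26%.

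**Figure D1:**
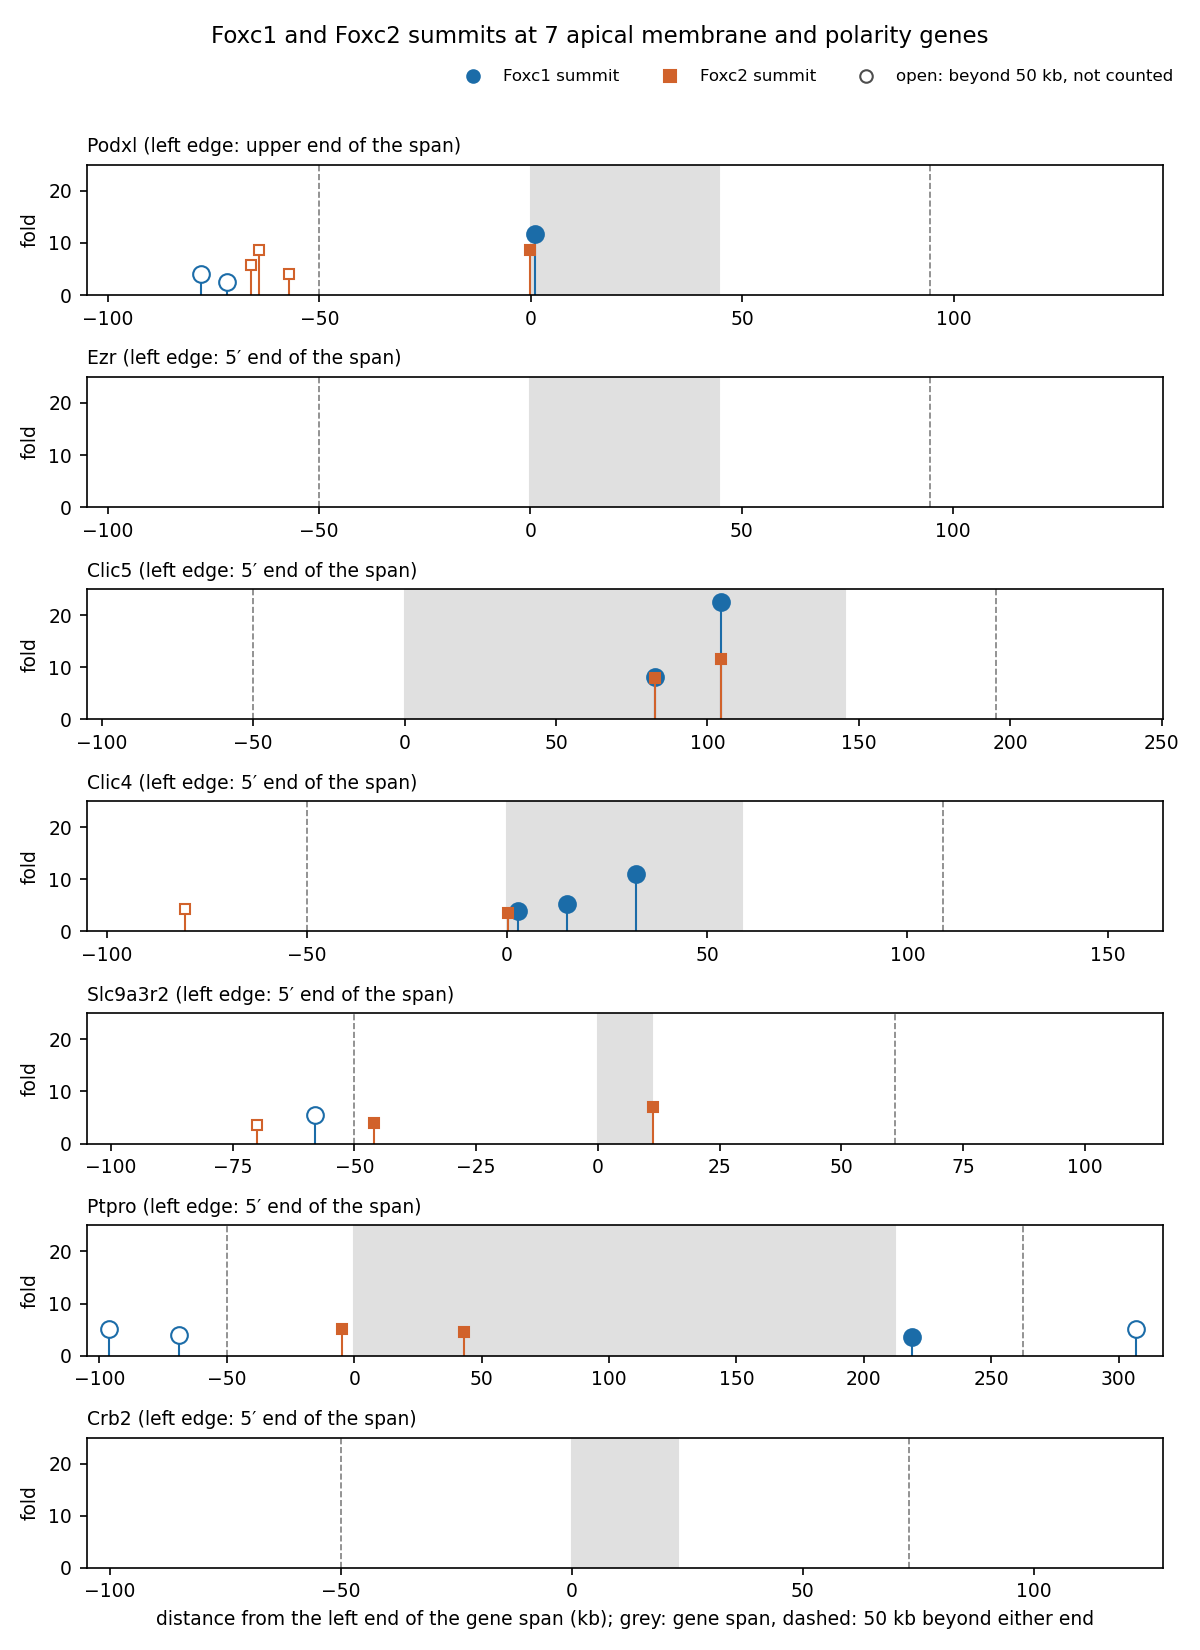
Summits of Foxc1 (blue circles) and Foxc2 (orange squares) at the 7 genes, as fold enrichment over local background against distance in kb from the left end of the gene span (grey); dashed lines stand 50 kb beyond either end and open symbols lie outside them. Clic5 carries coinciding summits deep inside the gene, within the dashed lines Podxl carries a summit of each antibody at 1 end and Clic4 has summits from 0.257 to 32.3 kb inside its 5′ end, and Ezr and Crb2 have no summit within 100 kb.

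The genome sequence under most of these peaks was not used here, so the regions shown are the start windows that RefSeq lists (GRCm38.p6), each running from 250 bases before a transcription start to 50 bases after its first base. Of the 7 genes, 6 matched the table, with 7 windows, and Podxl had no entry. The first 3 windows are shown because a Foxc2 summit lies 257 bases (Clic4) or 4.82 kb (Ptpro) from the start, or because no peak of either antibody is in reach (Crb2). Neither of those Foxc2 summits lies inside the window shown. The capitals in them mark the forkhead core words CAAACA and TAAATA on either strand, of which Clic4 has none. The last is the start of Noxo1, a neighbour of Slc9a3r2, shown because it holds the summit of a Foxc2 peak counted for Slc9a3r2; its capitals mark the 199 bases that lie inside that peak.
Clic4, chr4:135272711-135273010, minus strand: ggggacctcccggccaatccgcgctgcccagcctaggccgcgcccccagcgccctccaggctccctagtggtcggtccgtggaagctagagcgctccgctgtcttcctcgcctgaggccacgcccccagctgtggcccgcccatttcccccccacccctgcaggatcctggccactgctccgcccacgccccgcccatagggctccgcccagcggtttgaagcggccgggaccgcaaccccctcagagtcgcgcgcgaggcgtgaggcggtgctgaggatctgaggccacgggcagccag
Ptpro, chr6:137252049-137252348, plus strand: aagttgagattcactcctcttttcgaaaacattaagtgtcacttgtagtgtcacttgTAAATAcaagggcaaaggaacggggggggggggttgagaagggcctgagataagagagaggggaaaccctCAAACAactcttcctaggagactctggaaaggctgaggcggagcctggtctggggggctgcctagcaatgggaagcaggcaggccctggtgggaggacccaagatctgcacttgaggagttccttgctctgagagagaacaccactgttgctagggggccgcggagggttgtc
Crb2, chr2:37775999-37776298, plus strand: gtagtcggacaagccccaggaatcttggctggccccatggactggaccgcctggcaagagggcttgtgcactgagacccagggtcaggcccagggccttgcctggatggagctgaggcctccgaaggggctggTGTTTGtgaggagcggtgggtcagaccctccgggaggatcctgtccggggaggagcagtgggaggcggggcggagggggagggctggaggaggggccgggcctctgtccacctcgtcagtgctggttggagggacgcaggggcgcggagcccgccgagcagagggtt
Noxo1, chr17:24695984-24696283, plus strand: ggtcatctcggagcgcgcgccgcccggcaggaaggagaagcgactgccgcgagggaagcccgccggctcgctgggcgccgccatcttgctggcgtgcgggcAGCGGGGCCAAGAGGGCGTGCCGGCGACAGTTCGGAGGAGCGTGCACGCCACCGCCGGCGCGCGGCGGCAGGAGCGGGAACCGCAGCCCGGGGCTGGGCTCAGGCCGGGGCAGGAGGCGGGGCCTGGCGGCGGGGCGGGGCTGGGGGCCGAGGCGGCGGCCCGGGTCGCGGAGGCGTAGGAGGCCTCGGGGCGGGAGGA

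Searched on both strands, the forkhead core TAAACA stood in 0 of the 7 listed windows of these genes, and in 13.4% of the 32851 windows of the table. Its longer form GTAAACA, which contains it, was likewise in 0 of 7 and in 3.65% of all windows. CAAACA stood in 2 of 7 windows, those of Ptpro and Crb2, against 18.2% of all, and TAAATA in 1, that of Ptpro, against 13.7%. These counts describe letters in 300 bases and nothing further; none of the 15 peaks has its summit in a listed window of the gene itself. The windows of these genes had GC contents between 54.3% (Clic5) and 73.3% (Clic4), all above the median of 52.7% over the table. Their CpG dinucleotides numbered 4 in one Slc9a3r2 window and 5 at Ptpro, below the median of 7, and 15 (Crb2) to 38 (Ezr) in the others. The Noxo1 window with the Foxc2 summit had 80.3% GC and 46 CpG dinucleotides.

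At the surface coat, Podxl (chromosome 6, 31519493 to 31563937) had 1 peak of each antibody at the same end of the gene. The Foxc1 peak (31562699 to 31563156) had a fold enrichment of 11.7 over the caller's local background and a minus log10 q of 51.5. The Foxc2 peak (31563723 to 31564204) had a fold of 8.60 and a minus log10 q of 26.9. Folds depend on each library and are not compared between the lists; ranked within its own list, the Foxc1 peak stood 395th of 5213 from the strongest and the Foxc2 peak 42nd of 2881, a rank tied with the flanking Foxc2 peak described next. The peaks did not overlap. Their summits were 1085 bases apart, the Foxc1 summit 1.02 kb inside the span and the Foxc2 summit 63 bases beyond the end, and 566 bases separated the peak edges. The one other protein-coding gene in reach of either summit was Mkln1, named by its place alone, 46.1 kb from the Foxc1 and 47.2 kb from the Foxc2 summit.

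Further peaks lay just outside the limit of 50 kb on the same side of Podxl, in a stretch with no protein-coding gene within 50 kb of any of them. They were 3 Foxc2 peaks at 57.1, 64.2 and 66.2 kb from the gene, with folds of 3.97, 8.60 and 5.67, and 2 Foxc1 peaks at 71.8 and 78.1 kb, with folds of 2.56 and 4.11. The Foxc2 peak at 64.2 kb had the same fold and minus log10 q as the peak at the end of the gene, and the Foxc1 peak at 71.8 kb was close to the weakest of its list, at the percentile 0.288. Both that Foxc1 summit and the 3 Foxc2 summits fell inside the span of Gm31486, a long noncoding RNA gene of RefSeq. The nearest protein-coding end to each of the 5 was that of Podxl. Counting to 100 kb would give Podxl 3 Foxc1 and 4 Foxc2 peaks.

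The adaptors that join podocalyxin to actin had no Foxc1 peak in reach. Slc9a3r2 (chromosome 17, 24639281 to 24650305) had 2 Foxc2 peaks, and each lay closer to an end of another gene. The stronger (24638831 to 24639294), with a fold of 7.05 and rank 104 of 2881, had its summit 311 bases beyond the end of Slc9a3r2 away from its listed starts, and 132 bases from an end of Nthl1, a DNA repair gene. Its distance to the nearer listed start of Slc9a3r2 was 5.99 kb. The weaker (24696085 to 24696303, fold 3.95) stood at the percentile 50 of its list, 45.9 kb from Slc9a3r2, with its summit 23 bases before the listed start of Noxo1, which encodes an organizer subunit of an NADPH oxidase, and inside the listed start window of Gfer as well. It had 12 protein-coding genes in reach. The nearest Foxc1 summit, of fold 5.55, lay 58 kb from Slc9a3r2, just outside the limit.

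Ezr (chromosome 17, 6738131 to 6782780) had no summit near it. The nearest Foxc1 summit lay 1130 kb from its span, and 10.2% of all protein-coding genes were as far from one or farther. The nearest Foxc2 summit lay 166 kb away, a distance that 56.5% of genes reached or passed. For the median protein-coding gene the nearest Foxc1 summit lay 137 kb and the nearest Foxc2 summit 226 kb from the span.

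Clic5 (chromosome 17, 44134762 to 44280169) carried the strongest single peak of the group in each list, and the only peaks of the group that Foxc1 and Foxc2 shared. At the first place, the Foxc1 peak (44217181 to 44217584) had a fold of 8.07 and the Foxc2 peak (44217193 to 44217558) a fold of 7.91, and their summits were 4 bases apart. At the second, the Foxc1 peak (44239021 to 44239629) had a fold of 22.5 and the Foxc2 peak (44239136 to 44239764) one of 11.5, with summits 76 bases apart. The first Foxc2 peak lay wholly inside its Foxc1 counterpart, and at the second place 81.1% of the Foxc1 peak and 78.5% of the Foxc2 peak were covered by the other. Both places were inside the gene, 82624 and 104558 bases from the upstream end of its span by the Foxc1 summits. The one start that the table lists for Clic5 is internal to the span, and the same summits lay 28.8 and 50.7 kb downstream of it. Clic5 was the only protein-coding gene within 50 kb of them. The annotation used gives no exons or introns.

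Overlap of this kind was uncommon in the lists as a whole. Of the peaks on the main chromosomes, 8.2% in the Foxc1 list and 14.8% in the Foxc2 list were overlapped by the other antibody, and 2 of 7 and 2 of 8 at the genes described here. A shared peak lay in reach of 1 of the 7 genes, against 3.38% of all protein-coding genes, and at least 2 shared peaks of each antibody, as at Clic5, lay in reach of 57 genes, or 0.26%. Over all 428 overlapping pairs, the summits were a median of 65 bases apart (quartiles 27 and 142). The first Clic5 pair was among the closest 20 pairs (4.67%), and the second lay near the middle, with 55.6% of pairs as close or closer. By its strongest Foxc1 peak, Clic5 ranked within the top 139 genes of the 6404 with a Foxc1 summit in reach, and by its strongest Foxc2 peak within the top 11 of 5074.

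**Figure D2:**
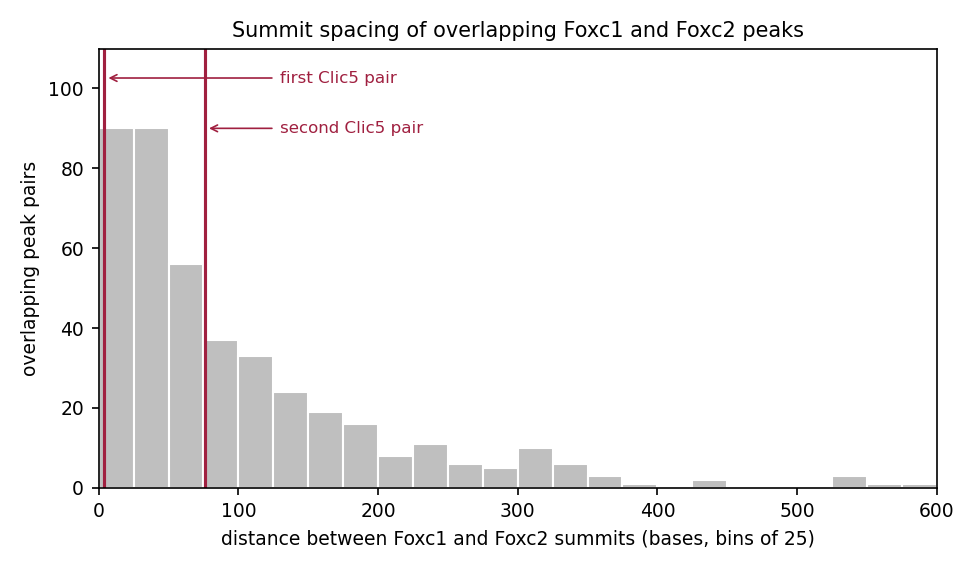
Distance in bases between Foxc1 and Foxc2 summits of all 428 overlapping peak pairs, in bins of 25 bases, as number of pairs; red lines mark the Clic5 pairs and 6 pairs beyond 600 bases are not drawn. The first Clic5 pair, 4 bases apart, sits in the lowest bin, and the second, at 76 bases, lies just above the median of 65.

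Clic4 (chromosome 4, 135213969 to 135272760, minus strand) had 3 Foxc1 peaks and 1 Foxc2 peak, all inside the gene and none shared. The Foxc1 summits lay 2.63, 14.9 and 32.3 kb downstream of the listed start, with folds of 3.96, 5.22 and 11.1. The Foxc1 fold was thus lowest nearest to the start. The Foxc2 peak (135272299 to 135272651, fold 3.52, percentile 24.5) had its summit 257 bases downstream of the start, past the window printed above, and 1938 bases of sequence separated it from the nearest Foxc1 peak. It was the weakest of the 8 Foxc2 peaks, and the only peak of either antibody whose summit lay within 1 kb of a listed start of its gene among the 6 genes with one. In the lists as a whole, 11.1% of Foxc1 and 53.7% of Foxc2 summits lay within 1 kb of a listed start of any gene, a wider measure. By that measure the Foxc2 peak counted for Slc9a3r2, 23 bases before the listed start of Noxo1, qualifies too. Podxl has no listed start, so its peaks could not be measured to their own gene. A Foxc2 peak of fold 4.30 at 80.5 kb, outside the limit, stood in the listed start window of Srrm1.

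The podocyte phosphatase Ptpro (chromosome 6, 137252299 to 137464634, plus strand) had 1 Foxc1 peak and 2 Foxc2 peaks, far from each other. The Foxc1 peak (137471107 to 137471352) was weak, with a fold of 3.64 at the percentile 11.5 of its list. It lay 6.55 kb beyond the far end of Ptpro and slightly nearer, at 6.06 kb, to an end of Eps8, which encodes an actin-capping protein. The Foxc2 peaks stood at the other side: one (137247326 to 137247621, fold 5.15, percentile 82.7) was 4.82 kb upstream of the listed start printed above, and one (137295129 to 137295430, fold 4.64, percentile 74.9) was 42.9 kb inside the gene. Ptpro was the only protein-coding gene in reach of both. The nearest Foxc1 and Foxc2 summits to one another were 176 kb apart.

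Crb2 (chromosome 2, 37776225 to 37799103), the polarity gene, had no summit in reach. The nearest Foxc1 summit lay 205 kb and the nearest Foxc2 summit 353 kb from its span, and 40.1% and 40.4% of protein-coding genes were as far or farther from one. A gene without a listed peak may still be bound below the caller's threshold, since weaker sites are missed at an unknown depth.

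Ranked within their own lists, the peaks of these genes ran from weak to among the strongest. Of the 7 Foxc1 peaks, 5 lay above the list's median fold of 4.9 and 3 in its top 10% (Clic5, Podxl and Clic4). Of the 8 Foxc2 peaks, 6 lay above that list's median of 3.97 and 4 in its top 10%, with both Clic5 peaks, the Podxl peak and the peak between Slc9a3r2 and Nthl1 among them. The median percentile was 83.3 for the Foxc1 peaks and 89.6 for the Foxc2 peaks, where 50 is the middle of a whole list. Both medians rest partly on 1 gene. The Clic5 peaks stood at 83.3 and 98.6 by Foxc1 and at 97.9 and 99.7 by Foxc2, and the Foxc1 median is itself a Clic5 peak. The second Clic5 peak was 74th of 5213 by Foxc1 and 9th of 2881 by Foxc2.

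**Figure D3:**
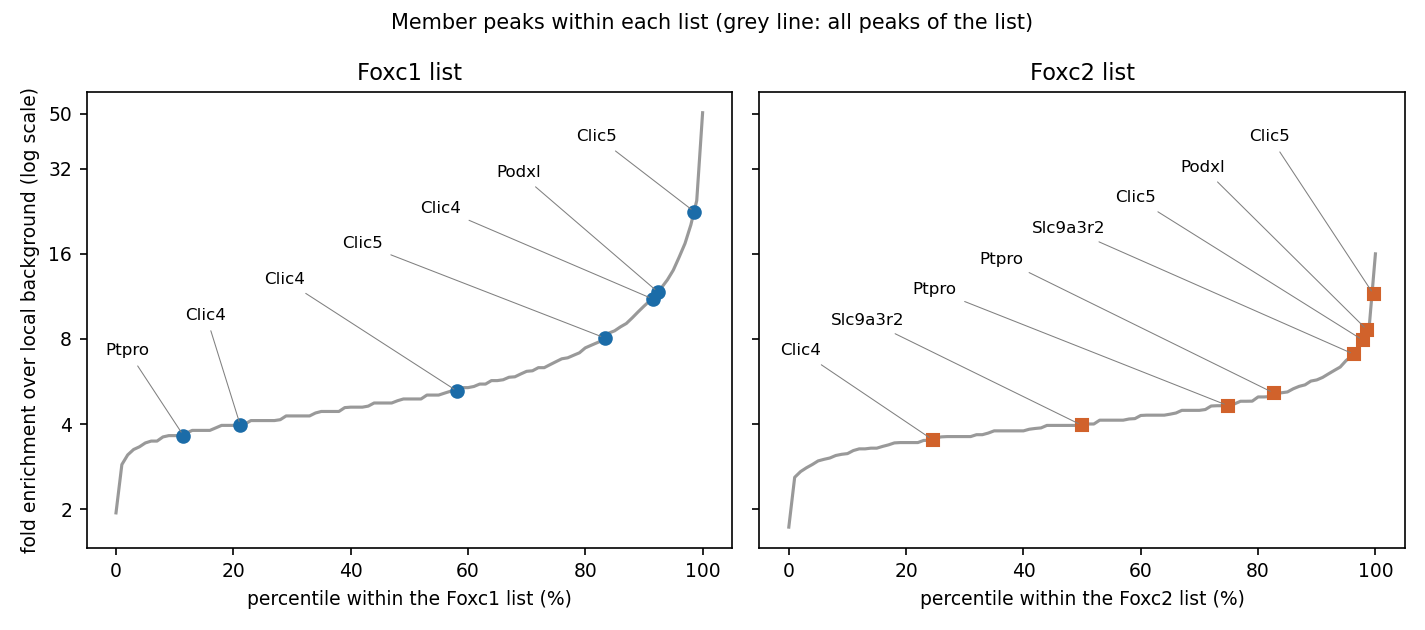
Fold enrichment over local background (log scale) against percentile within the list, for the peaks of the 7 genes (points, labelled by gene) and for all peaks (grey line), Foxc1 left and Foxc2 right. Foxc1 peaks of these genes reach from the percentile 11.5 (Ptpro) to 98.6 (Clic5), and Foxc2 peaks from 24.5 (Clic4) to 99.7 (Clic5).

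Relatives of the 7 genes were examined by the same rule. Foxc1 summits lay in reach of 3 and Foxc2 summits in reach of 4 of the 16 paralogs in their 6 families (18.8 and 25%, against 29.3 and 23.2% of all protein-coding genes), and none had both. Cd34, the sialomucin of the podocalyxin family that marks endothelium and blood progenitors, had 4 Foxc1 peaks with folds of 13.4, 7.91, 10.4 and 5.7, all outside the gene at 12.9 to 21.2 kb, and 0 Foxc2 peaks. Podxl2, which encodes endoglycan, had 2 Foxc1 peaks (folds of 5.85 and 4.43) and 0 Foxc2 peaks. Podxl was thus the only gene of its family with a Foxc2 peak in reach. In the ezrin family, Msn and Rdx, like Ezr, had none of either antibody. Crb1 and Crb3 had none, like Crb2.

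Among the scaffolds of the NHERF family, Slc9a3r1, which encodes NHERF1, had 2 Foxc2 peaks, of fold 4.30 inside the gene and 3.44 at 6.22 kb, the weaker 85 bases from an end of Tmem104. Pdzd3 had 1 Foxc2 peak (fold 4.51), 416 bases from an end of Cbl. No gene of this family had a Foxc1 summit in reach. Of the other CLIC genes, Clic1 had 2 Foxc1 peaks, of fold 6.86 and 4.27, the stronger 182 bases from an end of Msh5, and Clic3 had 1 Foxc2 peak of fold 4 that lay nearer to Paxx. Clic5 and Clic4 were the only CLIC genes with both antibodies, Clic4 through its single Foxc2 peak of fold 3.52. Ptprj, a phosphatase of the same class as Ptpro, had 2 Foxc2 peaks, one of fold 5.67 with its summit 18 bases from an end of the gene and one of fold 4.67 inside it, and Ptprb, Ptprh and Ptprq had none.

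Polarity proteins act in complexes, in which Crumbs and its scaffolds mark the apical face, the Par proteins with atypical protein kinase C mark its border, and the Scribble group marks the basolateral side. Of the 8 Par complex genes examined, 7 had a Foxc1 summit, 6 a Foxc2 summit and 5 both, where 29.3, 23.2 and 12.5% of all protein-coding genes did. These relatives were chosen with earlier results of these data known. Shares for genes of like span were not taken for them, and some of them are very long. Pard3b, with a span near 1000 kb, had 5 Foxc1 peaks (folds of 3 to 7.21) and 2 Foxc2 peaks (folds of 6.33 and 7.5), with 1 shared place 3.41 kb inside the gene. Pard3, the other long one (549 kb), had 4 Foxc1 peaks inside the gene, of folds 4 to 4.75, and 2 Foxc2 peaks of folds 3.57 and 6.71. Pard6b, a short gene, had 3 Foxc2 peaks, the strongest (fold 6.88) with its summit 5 bases beyond an end. Prkci and Prkcz, the atypical kinases, had 1 Foxc1 peak each and 2 and 4 Foxc2 peaks, and Prkcz had 1 shared place inside the gene with a Foxc1 fold of 4.27 and a Foxc2 fold of 3.78. Several of these peaks were nearer to other genes. The Foxc1 peak counted for Prkci (fold 11.1) and its stronger Foxc2 peak (fold 4.30, 598 bases from an end of Skil) were nearer to Skil, and both Foxc2 peaks of Prkcz outside the gene were nearer to Ski and Faap20.

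Cdc42, the small GTPase that recruits the Par complex, had 2 Foxc1 peaks, of fold 7.12 outside the gene, nearer to Wnt4, and of fold 4.59 inside it. Pard6g had 1 peak of each antibody, and its Foxc2 peak lay 32 kb outside the gene and 80 bases from an end of Adnp2. The single peak of Pard6a, a Foxc1 peak of fold 3.64 that lay nearer to Enkd1, is named after its value was seen. Of the 5 Crumbs partners, 1 had a Foxc1 and 2 a Foxc2 summit, and 3 had neither (Lin7a, Lin7b and Lin7c). Mpp5, named after its value was seen, had 1 Foxc2 peak of fold 4.81 with its summit 2 bases from an end, and Patj had a Foxc1 peak of fold 6.17 deep inside the gene and a Foxc2 peak of fold 3.78 near its end (449 bases). Of the 4 Scribble group genes, 1 had a Foxc1 and 2 a Foxc2 summit, Llgl2 having both (folds of 4.9 and 3.78), each nearer to another gene. Of 6 genes that supply sialic acid or build mucin-type sugars, 1 had a Foxc1 peak and 0 had a Foxc2 peak in reach; the 1 gene, Nans (fold 15.8, 805 bases from an end of Trim14), is named after its value was seen. Over all 39 relatives, Foxc1 summits were in reach of 13 and Foxc2 summits of 14 (33.3 and 35.9%), with 7 in reach of both, beside 29.3, 23.2 and 12.5% of all protein-coding genes. The Foxc1 share was close to that of all genes, and the Crumbs partner, Scribble and sugar counts above are read against the same shares. The 8 Par complex genes made up 7 of the 13 relatives with Foxc1, 6 of the 14 with Foxc2 and 5 of the 7 with both. The totals therefore do not describe relatives in general.

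**Figure D4:**
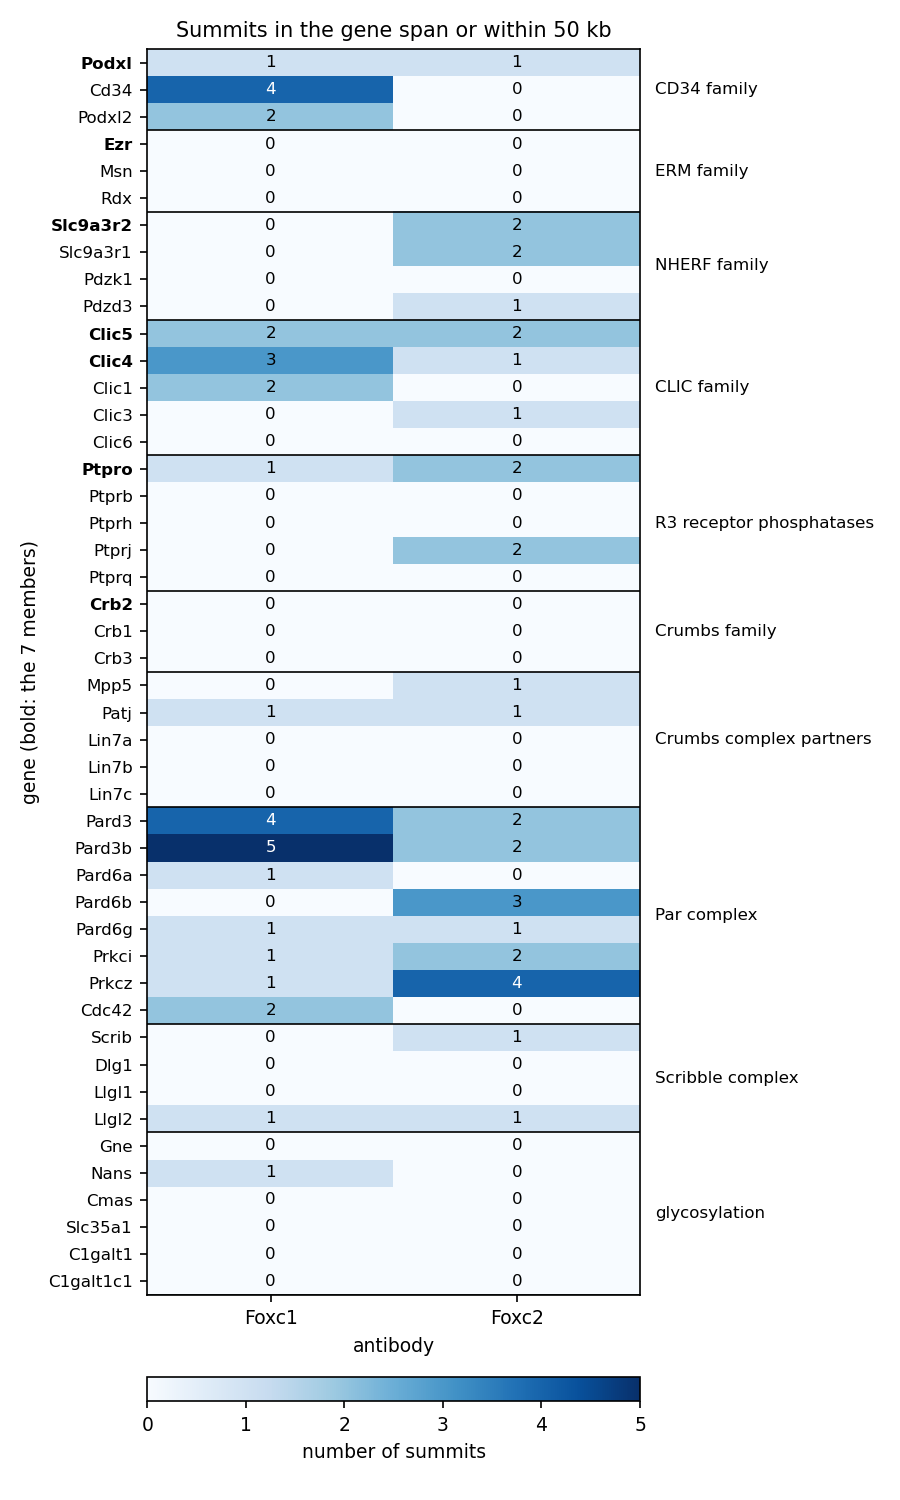
Number of Foxc1 (left column) and Foxc2 (right column) summits in the gene span or within 50 kb, for the 7 genes (bold) and 39 relatives grouped by family or complex; darker blue means more summits, on a scale of 0 to 5. Clic5 and Clic4 are the only CLIC genes with both antibodies, and the ezrin and Crumbs families are empty in both columns.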

How the data were processed

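ChIP-seq of mouse glomeruli gave 1 peak list for Foxc1 and 1 for Foxc2, with groups taken from the sample titles. Per the submitters' processing notes, Bowtie2 and MACS2 were used with mm10; their versions, settings and control, and any pooling, were not given in these sources. The authors deposited, per peak, a ratio (fold enrichment over the caller's local background), the −log10 p-value and −log10 q-value, a score (10 times the minus log10 q without decimals, not used) and the summit as an offset. Every deposited q-value was under 0.05. A peak's percentile is the share of its list with an equal or lower fold. All later steps used Python 3.11.15 with pandas 2.3.3 and scipy 1.17.1, and the assignment and overlap steps (at least 1 bp) were tested on simulated data with planted peaks.

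Gene spans and start windows came from RefSeq (GRCm38.p6). The promoter table does not list every gene, and shares of summits near a start cover only the chromosomes it holds. No replicates existed, so no test was run. The genes and lists were chosen with earlier results of these data known. Named are the 7 genes, every peak assigned to them and the gene whose end is nearest to it, paralogs with a summit and relatives with at least 2. Alternatives varied the distance, the assignment, the peak threshold, the list length, the overlap, the ranking and the motif. The planned window of 100 bases around summits was replaced by start windows, since no genome was used.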

Additional observations from a re-analysis of the deposited data

How the results depend on the processing

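No paired analysis was possible because each antibody had 1 library. Ezr and Crb2 had no peak under any assignment or threshold tried, and Clic5 kept 2 peaks of each antibody, both shared, under all of them. Summary counts moved by over 1.5 times as follows, and single genes are named where they lost every peak of an antibody. With summits counted to 100 kb, the genes had 13 Foxc1 and 13 Foxc2 peaks. With the gene span alone, they had 4 Foxc2 peaks, 3 genes had a Foxc2 summit, 2 had both antibodies, and summits of Foxc1 and Foxc2 lay at 7 and 8 of the 39 relatives. Podxl and Slc9a3r2 then had no Foxc2 peak, and Ptpro had no Foxc1 peak. With folds of 5 or more, 5 Foxc2 peaks were left, 2 genes had both antibodies, and 8 and 5 relatives had a summit. With a minus log10 q of 5 or more, 2 genes had both antibodies. At either threshold, Clic4 lost its only Foxc2 peak and Ptpro its only Foxc1 peak. With each summit given to its nearest protein-coding gene alone, 9 relatives had a Foxc2 summit, Slc9a3r2 lost both Foxc2 peaks and Ptpro its Foxc1 peak. For these settings, the share of all protein-coding genes was available only for summits inside the span (9.53% for Foxc1 and 7.58% for Foxc2). The other counts cannot be set against the shares of the 50 kb rule. With peaks within 1 kb counted as shared, Podxl joined Clic5, so 2 genes had a shared peak of each antibody. The word CAAACA was in 2 and TAAATA in 1 of the start windows, against 0 for TAAACA. Ranked by minus log10 q, the median percentile of the Foxc2 peaks was 88.2, against 89.6 by fold. That is not a change of 1.5 times, but it fell outside the interval described next. No single peak moved by more than 4.1 percentage points. The other 55 values of these summaries stayed within 1.5 times or, for ranks, within a 95% binomial interval of the percentile. That interval takes the length of the list as its sample size. It does not measure the spread of the few peaks of these genes. The changes with distance, assignment, threshold and sharing rule follow from the peaks each setting counts, and those with the motif from the letters searched; the cause of the change in rank was not tested. Depth is unknown, so a missing peak is no evidence of absent binding.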
